A study of Mus musculus with 12 samples.

Results

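The 35 genes described here encode hydrolases of the lysosome, the cofactors and lipid carriers that assist them, proteins of the lysosomal membrane, and 2 transcription factors that regulate lysosomal genes. They were taken from a list of symbols by a rule that uses no measured value, and all 35 were found among the 23845 genes of the deposited expected count and TPM tables (TPM, a transcript level scaled by gene length and by library). The list itself was chosen with earlier results of these data known. Microglia are the macrophages that reside in the brain. They were isolated on Percoll gradients, the mice were C57BL6/J and 3 to 4 months old, and RNA was sequenced from poly(A) libraries. The 4 groups hold 3 libraries each, with 1 animal per library. CPEB1-KO-LPS libraries came from mice lacking CPEB1 that were injected with lipopolysaccharide (LPS) 24 hours before harvest, and CPEB1-KO libraries from mice of that genotype without LPS. WT-LPS libraries came from wild-type mice given LPS in the same way, and WT libraries from wild-type mice without LPS. CPEB1 binds target mRNAs and regulates their poly(A) tails and their translation, and LPS is a component of bacterial outer membranes that activates microglia. The construction of the CPEB1 knockout allele, the cells it affects, the LPS dose and route, the sex of the mice, and whether untreated mice received a vehicle injection were not given in the sources used here.

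Lysosomes are acidic organelles in which soluble hydrolases break down glycans, lipids and proteins delivered by endocytosis, phagocytosis and autophagy. Heavily glycosylated membrane proteins shield the limiting membrane, and transporters and channels export the products and ions. In microglia the lysosome digests myelin, synaptic material and dead cells, and inherited loss of many of the hydrolases listed here causes lysosomal storage disease with neurodegeneration. TFEB and TFE3, factors of the MiT family, activate many lysosomal genes through a promoter element built around an E-box.

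The letters of that E-box were looked for on both strands in the RefSeq promoter windows (GRCm38.p6, 250 bases before to 50 after each start), because TFEB and TFE3 are themselves among the genes described. A window was available for 32 of the 35 genes, and none for Asah1, Galns and Npc1. The core CACGTG stood in the windows of 10 of these 32 genes (31.25%), against 8.093% of the 27025 genes with a window. Its longer palindrome TCACGTGA, which contains the core, stood in 3 of 32 (9.375%), Gla, Cln3 and Mcoln1, against 1.125% of all genes. The 4 palindromes are shown with 30 bases each, with the palindrome in capitals, and Naglu is added because it and Gla were the genes with a core whose level is described below as changed by LPS in wild-type mice; its core is in capitals. Each sequence reads 5′ to 3′ on the strand of the gene.
Gla, chrX:134601182-134601211, minus strand: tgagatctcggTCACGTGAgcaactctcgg
Gla, chrX:134601215-134601244, minus strand: taagcgattgaTCACGTGAgcatctacgtc
Cln3, chr7:126583340-126583369, minus strand: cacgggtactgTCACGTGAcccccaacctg
Mcoln1, chr8:3500462-3500491, plus strand: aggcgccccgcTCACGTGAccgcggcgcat
Naglu, chr11:101070009-101070038, plus strand: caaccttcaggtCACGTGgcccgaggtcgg

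The libraries held 5024830 to 13544200 expected counts, and WT replicates 2 and 3 were the smallest, at 5024830 and 5404810. Cpeb1 itself had 34.6, 40.6 and 24.04 TPM in CPEB1-KO-LPS libraries against 17.6, 26.4 and 21.3 TPM in CPEB1-KO libraries, and 40.2, 24.1 and 45.1 TPM in WT-LPS libraries against 19.95, 15.5 and 43.3 TPM in WT libraries, so its transcript was counted in the libraries labelled knockout, and a value per gene cannot tell which of its exons remain. Its log2 fold change was -0.58 ± 0.31 (SE, adjusted p = 0.334) in CPEB1-KO against WT by edgeR. The microglial markers P2ry12, Tmem119 and Cx3cr1 were measured in every library; P2ry12 had 18.1, 9.79 and 71.7 TPM in CPEB1-KO-LPS libraries against 307, 279.9 and 238 TPM in CPEB1-KO libraries, and 16.3, 78.8 and 57.3 TPM in WT-LPS libraries against 441, 505 and 474 TPM in WT libraries. The neuronal transcript Snap25 was present in every library too, at 572 to 2439.8 TPM. The summed level of a list of 12 homeostatic microglial genes was 1207, 684 and 2898 TPM in CPEB1-KO-LPS libraries, 4655, 3426 and 2914 TPM in CPEB1-KO libraries, 995, 4639 and 3160.4 TPM in WT-LPS libraries and 6323, 6935 and 6065 TPM in WT libraries. A list of 12 neuronal genes summed to 4232, 4659 and 2524 TPM in CPEB1-KO-LPS libraries, 3802, 4964 and 5441 TPM in CPEB1-KO libraries, 6233, 2322 and 3019.8 TPM in WT-LPS libraries and 3730.1, 1366 and 1663 TPM in WT libraries. Of the genes matched in the tables, none of these lists, or of the lists for monocytes, border macrophages, neutrophils, lymphocytes, erythroid cells, vessels, astrocytes, oligodendrocytes and choroid plexus, was at 0 in all 12 libraries; the match was complete except for the erythroid list (4 of 5) and the neutrophil list (7 of 8). Libraries of 1 group thus stood apart: WT-LPS replicate 1 and CPEB1-KO-LPS replicates 1 and 2 were low in the microglial list, and CPEB1-KO-LPS replicate 3 had an erythroid sum of 61141 TPM, against 7051 and 11851 TPM in the other 2 libraries of its group. In bulk RNA, fewer cells of a type and less RNA per cell cannot be told apart.

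The 35 genes summed to 5070.4, 4314 and 7544 TPM in CPEB1-KO-LPS libraries, 6174, 5731 and 5177 TPM in CPEB1-KO libraries, 4799, 7455 and 6929.6 TPM in WT-LPS libraries and 6822, 6472 and 6138 TPM in WT libraries. The ranges of the LPS groups overlapped those of the groups without LPS. Psap, the precursor of the saposins that present sphingolipids to their hydrolases, was the most abundant of the 35 with a mean of 1874 TPM over the 12 libraries. Cd63, Lgmn, Lamp1 and Laptm5 followed with means of 575, 524, 469.5 and 399 TPM. Sgsh, a sulfatase of heparan sulfate, had the lowest mean, 3.85 TPM. The plot of all 35 genes by library shows that libraries of 1 group often differed as much as groups did. Here and below, libraries and their ranges are compared by TPM unless another scale is named.

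**Figure D1:**
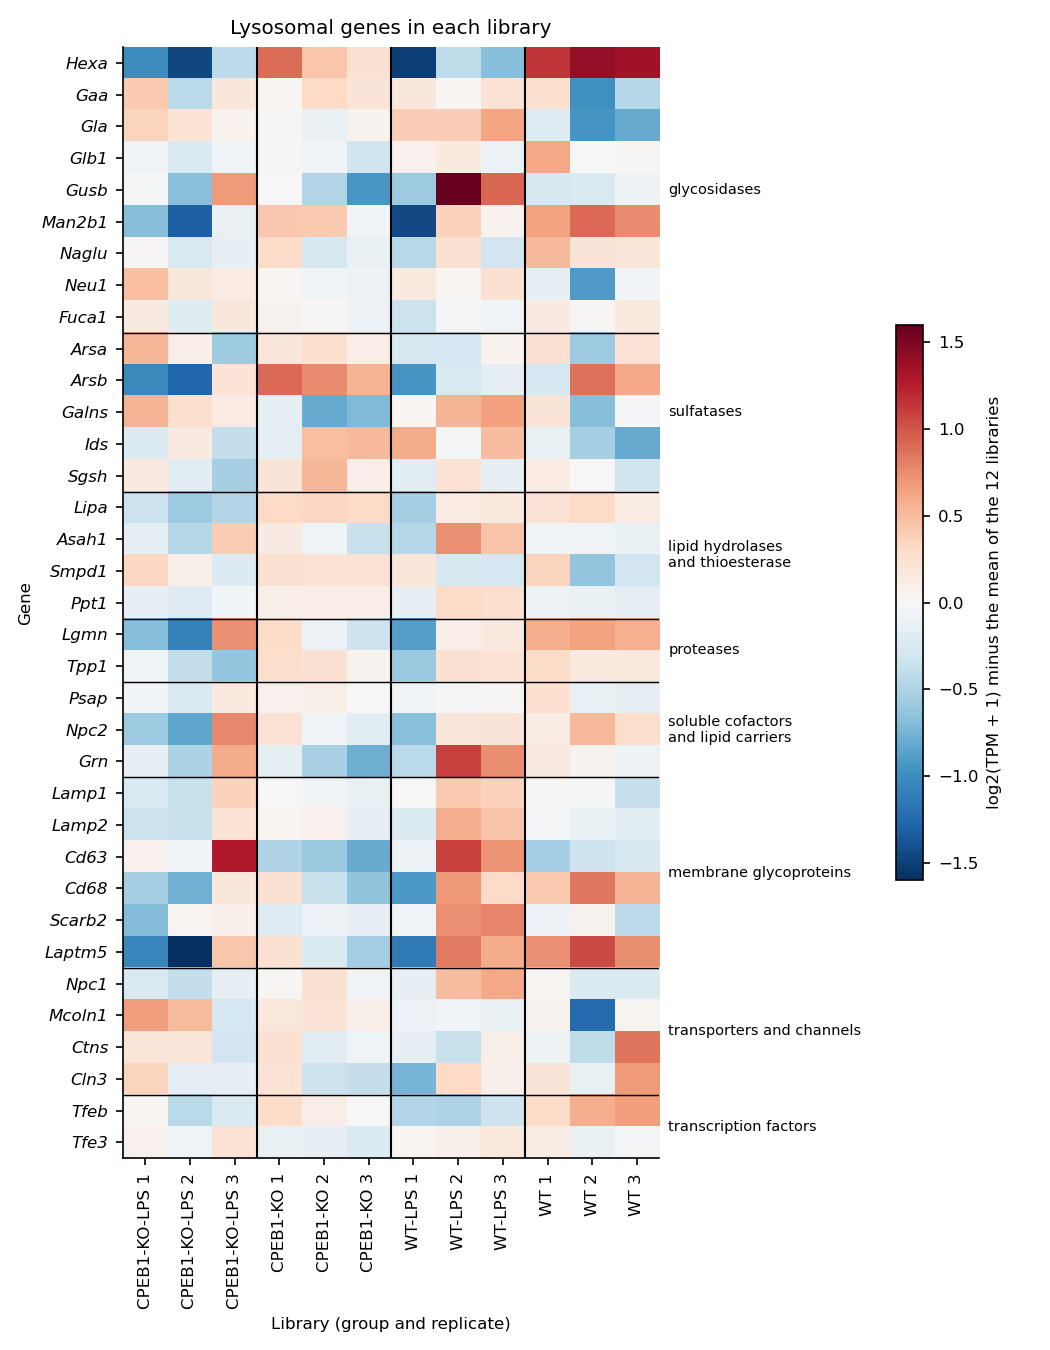
Level of each of the 35 lysosomal genes (rows, ordered by role) in each of the 12 libraries (columns), as log2(TPM + 1) minus the gene's mean over the 12 libraries. Hexa is high in the 6 libraries without LPS and low in the 6 with LPS, while CPEB1-KO-LPS replicate 2 is the lowest of its group for 24 of the 35 genes, CPEB1-KO replicate 3 for 26 and WT-LPS replicate 1 for 26.

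LPS lowered a small group of these genes and raised a smaller one. In WT-LPS against WT, 5 of the 35 passed a false discovery rate (FDR) of 0.05 over the 15295 genes tested with edgeR's quasi-likelihood test: Gla was higher, and Hexa, Tfeb, Naglu and Fuca1 were lower. Calls named here and below are those of this test with all 12 libraries unless another setting is named, and changes are log2 fold changes ± SE. That is 14.3% of the genes described, beside 27.4% of all genes tested (12.4% higher and 14.9% lower), so the share of lysosomal genes called was under that of all genes. The median log2 fold change was -0.32 over the 35 and -0.03 over all genes. These medians are on TMM-scaled counts (TMM, trimmed mean of M values). With limma on log2(TPM + 1), which differs in scale, in filter and in test, the medians were 0.03 over the 35 and 0.29 over all genes, so the sign of the list's median differed between these fits while it lay under the median of all genes in both. The calls of Hexa and Tfeb held in all 21 alternative settings and that of Gla in 20, being lost in the fit of WT-LPS and WT alone (adjusted p = 0.0526). Naglu was called in 4 of the 21 and Fuca1 in 3. Leaving out WT-LPS replicate 2 or CPEB1-KO-LPS replicate 3 gave 8 called, and leaving out WT replicate 2 or 3, WT-LPS replicate 1 or 3, CPEB1-KO replicate 2 or 3, or CPEB1-KO-LPS replicate 1 or 2 gave 3.

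In CPEB1-KO-LPS against CPEB1-KO, edgeR called 0 of the 35, beside 6.22% of all genes (4.1% higher and 2.12% lower). At an unadjusted p below 0.05 there were 6 (17.1%), beside 20.5% of all genes. DESeq2 called 4 of the 35, beside 9.45% of all genes, and limma called 2 on log2(TPM + 1), beside 5.45%, and 1 on log2(TPM + 0.1), beside 5.19%. Hexa had the smallest adjusted p of the 35, 0.0545. It was called in 8 of 21 alternative settings, with adjusted p = 0.0362 when WT-LPS replicate 1 was left out, 0.04997 when WT-LPS replicate 2 was and 0.0160 when CPEB1-KO-LPS replicate 3 was. The median log2 fold change was -0.01 over the 35 and 0.00 over all genes. With both genotypes averaged, LPS against no LPS (6 libraries each) called 8 of the 35 (22.9%), beside 25.7% of all genes (13.2% higher and 12.5% lower). Gla and Cd63 were higher, and Hexa, Lipa, Tfeb, Arsb, Man2b1 and Tpp1 were lower. Leaving out WT replicate 2 or CPEB1-KO replicate 1 lowered the count to 5. The calls of Hexa, Lipa, Tfeb and Gla held in all 20 alternative settings of this comparison, that of Arsb was lost only without WT replicate 2 (adjusted p = 0.0540), and those of Man2b1, Cd63 and Tpp1 were lost in 5, 6 and 7 settings.

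**Figure D2:**
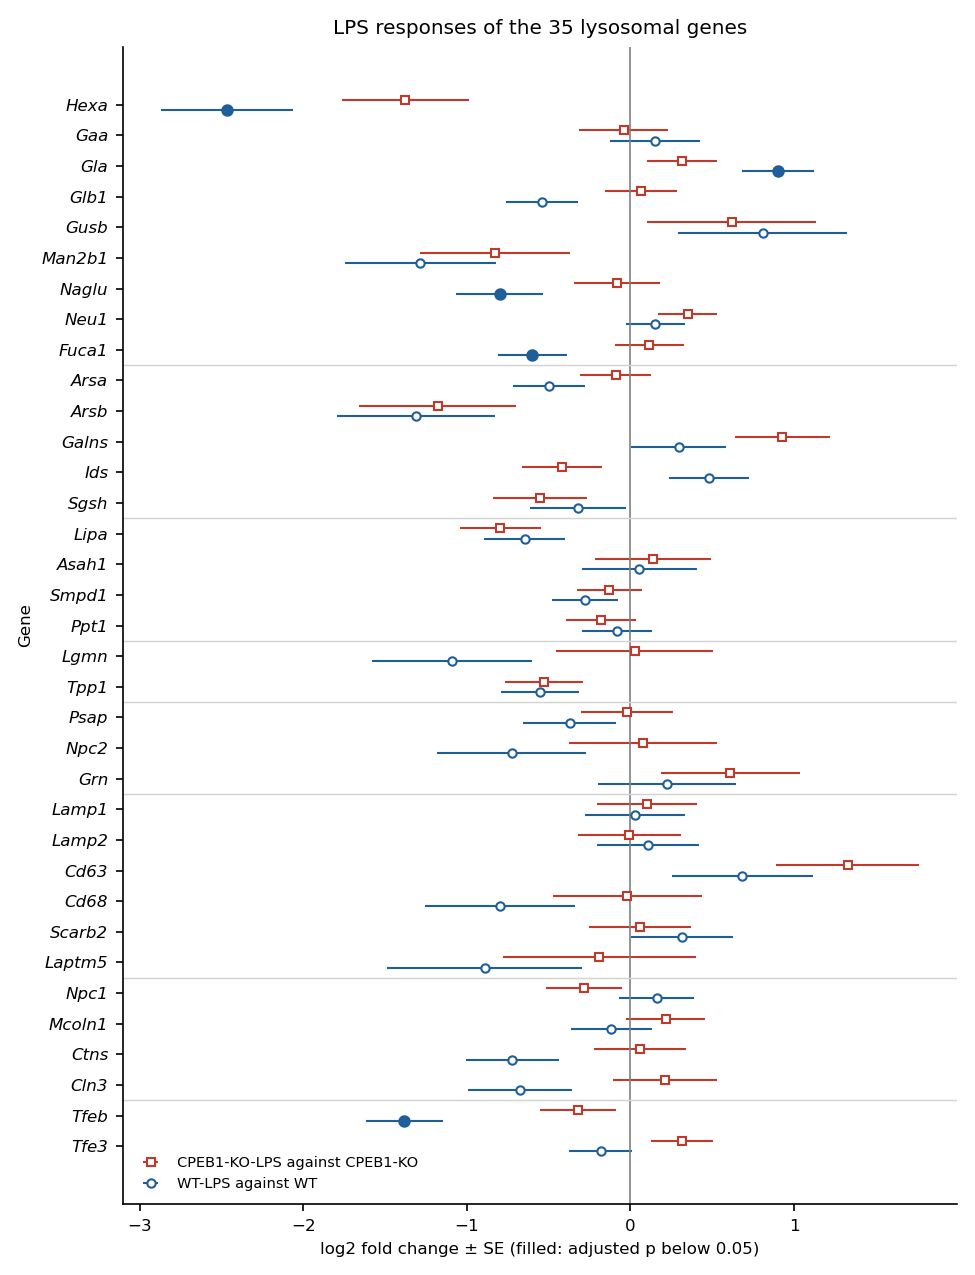
Log2 fold change ± SE of each of the 35 genes after LPS, in CPEB1-KO-LPS against CPEB1-KO (red squares) and in WT-LPS against WT (blue circles), grouped by role. Filled symbols have an adjusted p below 0.05: Hexa, Gla, Naglu, Fuca1 and Tfeb in the wild type.

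The glycosidases strip sugars from glycoproteins, glycolipids and glycosaminoglycans. Of the 9, WT-LPS against WT called 1 higher and 3 lower (44.4%, beside 27.4% of all genes), and LPS averaged over genotypes called 1 higher and 2 lower (33.3%, beside 25.7%). The wild-type share rests in part on Naglu and Fuca1, which were called in only 4 and 3 of the 21 alternative settings. Hexa, the alpha subunit of the beta-hexosaminidase that degrades gangliosides, had 77.9, 57.01 and 118 TPM in CPEB1-KO-LPS libraries against 294, 215 and 187 TPM in CPEB1-KO libraries, and 54.97, 119 and 98.2 TPM in WT-LPS libraries against 349.7, 421 and 403 TPM in WT libraries. Every LPS library lay below every library without LPS. Its mean was 90.8 ± 32.8 TPM in WT-LPS and 391 ± 37.2 TPM in WT libraries (SD, n = 3 each), with a log2 fold change of -2.47 ± 0.40 (SE, adjusted p = 0.00123) by edgeR. In CPEB1-KO-LPS against CPEB1-KO the change was -1.37 ± 0.39 (SE, adjusted p = 0.0545), and over both genotypes Hexa fell by 1.92 on the log2 scale (SE 0.32, adjusted p = 0.000684). Of the exon bases of Hexa (GENCODE M21, chromosome 9, 59539540 to 59565109, plus strand), 12.8% are shared with Tmem202 on the opposite strand, and the sources used here do not say whether reads were counted by strand. Exon bases are shared with another gene in 9 others of the 35. They are Glb1, Arsa, Arsb, Sgsh, Ppt1, Grn, Lamp1, Npc1 and Cln3. The share with a single other gene ran from 0.8% in Npc1, with Gm15956, to 32.3% in Arsb. Npc1 also shares 4.52% with Rmc1. In all but Glb1 each such gene lies on the opposite strand, and the counts carry the same uncertainty. Glb1 shares 5.49% with Tmppe on the same strand, where counting by strand would not separate them.

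Gla, the alpha-galactosidase that degrades globotriaosylceramide, was the glycosidase that rose. It had 10.4, 9.38 and 8.26 TPM in CPEB1-KO-LPS libraries against 7.68, 7.15 and 8.20 TPM in CPEB1-KO libraries, and 10.6, 10.7 and 12.8 TPM in WT-LPS libraries against 6.73, 3.62 and 4.07 TPM in WT libraries. The WT-LPS libraries were all above the WT libraries, and the CPEB1-KO-LPS libraries were all above the CPEB1-KO libraries, where the lowest and the highest nearly touched. The expected counts of Gla were low, with 121, 42 and 44 in WT libraries and 222, 197 and 229 in WT-LPS libraries. WT replicates 2 and 3 were the smallest libraries. The log2 fold change was 0.90 ± 0.22 (SE, adjusted p = 0.00905) in WT-LPS against WT, 0.32 ± 0.21 (SE, adjusted p = 0.440) in CPEB1-KO-LPS against CPEB1-KO and 0.60 ± 0.17 (SE, adjusted p = 0.0195) averaged over genotypes. Gla lies on chromosome X, 134588149 to 134601125, minus strand, and its promoter holds both palindromes printed above. Man2b1, the lysosomal alpha-mannosidase, had 62.98, 40.3 and 93.5 TPM in CPEB1-KO-LPS libraries against 137, 136 and 98.1 TPM in CPEB1-KO libraries, and 36.7, 131 and 106 TPM in WT-LPS libraries against 159, 191 and 172 TPM in WT libraries. By TPM, LPS libraries were below libraries without LPS within each genotype, and the LPS libraries spanned 36.7 to 131 TPM in the wild type. On TMM-scaled counts the wild-type groups stayed apart, and the knockout ranges overlapped. Man2b1 missed the threshold in WT-LPS against WT (-1.28 ± 0.46, adjusted p = 0.0539) and passed it over both genotypes (-1.06 ± 0.32, adjusted p = 0.0276); without WT replicate 2, WT-LPS replicate 3, CPEB1-KO replicate 1, or CPEB1-KO-LPS replicate 1 or 2 it was not called, with adjusted p from 0.0532 to 0.0784.

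Naglu and Fuca1 were called lower in WT-LPS against WT with adjusted p near the threshold. Naglu, the alpha-N-acetylglucosaminidase of heparan sulfate degradation, had 21.4, 17.8 and 19.1 TPM in CPEB1-KO-LPS libraries against 26.3, 17.6 and 19.5 TPM in CPEB1-KO libraries, and 15.3, 25.2 and 17.1 TPM in WT-LPS libraries against 30.7, 24.7 and 24.4 TPM in WT libraries. Its TPM ranges overlapped in both genotypes, and the log2 fold change from TMM-scaled counts was -0.80 ± 0.27 (SE, adjusted p = 0.0398) in WT-LPS against WT. Fuca1, the alpha-fucosidase, had 47.6, 37.7 and 49.2 TPM in CPEB1-KO-LPS libraries against 45.04, 43.8 and 40.2 TPM in CPEB1-KO libraries, and 33.7, 42.3 and 41.4 TPM in WT-LPS libraries against 47.8, 43.6 and 47.99 TPM in WT libraries. The WT-LPS libraries were below the WT libraries with WT-LPS replicate 2 next to WT replicate 2, and the log2 fold change was -0.60 ± 0.21 (SE, adjusted p = 0.0495). Leaving out any 1 library other than WT-LPS replicate 2, CPEB1-KO replicate 1 and CPEB1-KO-LPS replicate 3 ended the call of Naglu (adjusted p from 0.0502 to 0.146), and leaving out any other than WT replicate 1, WT-LPS replicate 2 and CPEB1-KO-LPS replicate 3 ended that of Fuca1 (from 0.0668 to 0.194). In CPEB1-KO-LPS against CPEB1-KO the changes were -0.08 ± 0.26 (SE, adjusted p = 0.896) for Naglu and 0.12 ± 0.21 (SE, adjusted p = 0.806) for Fuca1. Glb1, the beta-galactosidase that acts on gangliosides and keratan sulfate, had 19.6, 17.1 and 19.5 TPM in CPEB1-KO-LPS libraries against 19.8, 19.4 and 16.1 TPM in CPEB1-KO libraries, and 21.3, 22.7 and 18.9 TPM in WT-LPS libraries against 31.7, 20.4 and 20.6 TPM in WT libraries. Its highest value was WT replicate 1, and its changes after LPS were 0.06 ± 0.22 (SE, adjusted p = 0.906) in the knockout and -0.54 ± 0.22 (SE, adjusted p = 0.0845) in the wild type. Gaa, the alpha-glucosidase of glycogen, ranged over 94.2 to 249.8 TPM, Gusb, the beta-glucuronidase, over 23.7 to 146 TPM, and Neu1, the sialidase, over 16.9 to 46.1 TPM, and none of these 3 was called in any comparison. Gusb had the widest spread within a group of all 35 genes, with a highest WT-LPS library 4.77 times the lowest, and it passed in WT-LPS against WT with the neuronal level as a covariate (1.36, adjusted p = 0.0193).

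**Figure D3:**
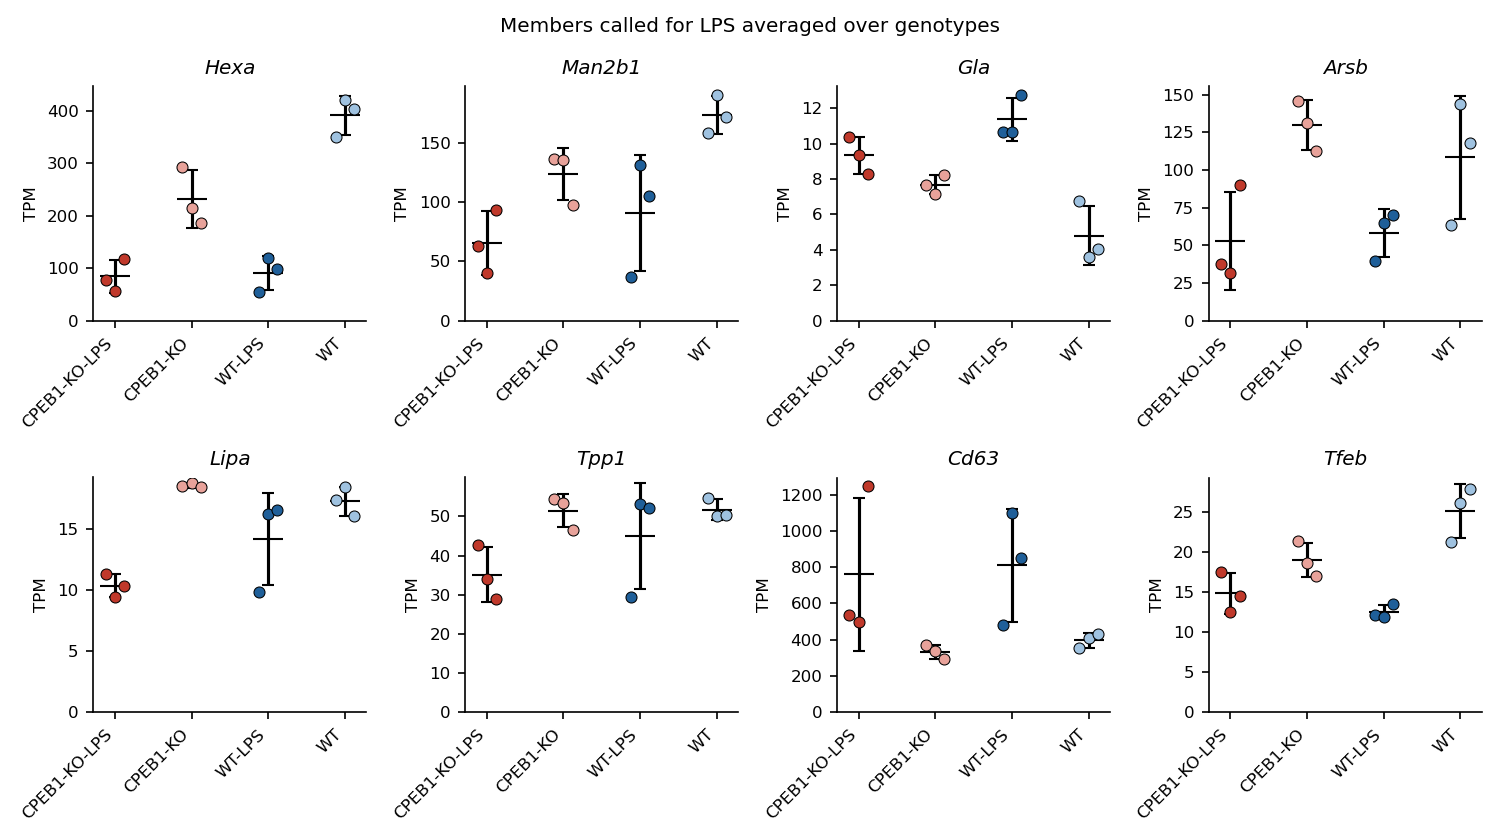
TPM of the 8 genes called for LPS averaged over genotypes, with a point per library, a horizontal line at the group mean and bars of 1 SD (n = 3), on axes that start at 0. Hexa is at 119 TPM or less in every LPS library and at 187 TPM or more in every library without LPS, whereas the Cd63 means after LPS rest on wide spreads.

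Of the 5 sulfatases, which remove sulfate from glycosaminoglycans and sulfatide, 1 was called, for LPS averaged over genotypes (20.0%, beside 25.7% of all genes). Arsb, the sulfatase of dermatan and chondroitin sulfate, had 37.3, 31.4 and 90.2 TPM in CPEB1-KO-LPS libraries against 146, 131 and 113 TPM in CPEB1-KO libraries, and 39.7, 64.8 and 69.96 TPM in WT-LPS libraries against 63.3, 144 and 118 TPM in WT libraries. WT replicate 1 was as low as the WT-LPS libraries, so the wild-type ranges overlapped, while the knockout ranges did not. Its log2 fold change was -1.31 ± 0.48 (SE, adjusted p = 0.0583) in WT-LPS against WT, -1.18 ± 0.48 (SE, adjusted p = 0.180) in CPEB1-KO-LPS against CPEB1-KO and -1.24 ± 0.33 (SE, adjusted p = 0.0141) averaged over genotypes. Without CPEB1-KO-LPS replicate 3, the comparison in the knockout gave -1.99 (adjusted p = 0.0177). Of the exon bases of Arsb, 32.3% are shared with Gm26527, a non-coding gene on the opposite strand. Galns, a sulfatase of keratan sulfate, had 12.6, 10.2 and 9.23 TPM in CPEB1-KO-LPS libraries against 7.48, 4.36 and 4.74 TPM in CPEB1-KO libraries, and 8.57, 12.6 and 13.7 TPM in WT-LPS libraries against 9.75, 4.82 and 8.12 TPM in WT libraries. All CPEB1-KO-LPS libraries were above all CPEB1-KO libraries, and the wild-type ranges overlapped. The change was 0.93 ± 0.29 (SE, adjusted p = 0.0787) in the knockout, 0.29 ± 0.29 (SE, adjusted p = 0.471) in the wild type and 0.61 ± 0.22 (SE, adjusted p = 0.0543) averaged over genotypes. The averaged change passed in 9 of the 20 alternative settings, with adjusted p from 0.0137 to 0.0484: RLE size factors, DESeq2, no filter, the stricter filter, both limma fits, the neuronal covariate, and without WT replicate 1 or WT-LPS replicate 1. In the knockout it passed with DESeq2 (0.92, adjusted p = 0.0378) and without CPEB1-KO replicate 1 (1.24, adjusted p = 0.0436).

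Ids, the iduronate sulfatase of dermatan and heparan sulfate, had 90.02, 115 and 79.8 TPM in CPEB1-KO-LPS libraries against 93.6, 147 and 151 TPM in CPEB1-KO libraries, and 159, 103 and 148 TPM in WT-LPS libraries against 96.7, 71.9 and 59.2 TPM in WT libraries. The WT-LPS libraries were above the WT libraries, and the CPEB1-KO-LPS libraries overlapped the CPEB1-KO libraries at a lower level. Its log2 fold changes were -0.42 ± 0.25 (SE, adjusted p = 0.372) in CPEB1-KO-LPS against CPEB1-KO and 0.48 ± 0.25 (SE, adjusted p = 0.159) in WT-LPS against WT. Limma on log2(TPM + 1) called Ids in the wild type (0.84, adjusted p = 0.0287). Arsa, the sulfatase of sulfatide, ranged over 14.3 to 32.2 TPM and Sgsh over 2.31 to 5.89 TPM, and neither was called in any comparison.

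Among the 4 lipid hydrolases, Lipa, the acid lipase that frees cholesterol and fatty acids from lipoprotein lipids, was lower after LPS. It had 11.4, 9.47 and 10.4 TPM in CPEB1-KO-LPS libraries against 18.5, 18.8 and 18.5 TPM in CPEB1-KO libraries, and 9.90, 16.3 and 16.6 TPM in WT-LPS libraries against 17.4, 18.5 and 16.1 TPM in WT libraries. The knockout groups did not overlap. By TPM, WT-LPS replicate 1 was far below the other 2 WT-LPS libraries, which overlapped the WT libraries. On TMM-scaled counts all WT-LPS libraries lay below the WT libraries. For Lipa the log2 fold change was -0.80 ± 0.25 (SE, adjusted p = 0.0770) in CPEB1-KO-LPS against CPEB1-KO, -0.65 ± 0.25 (SE, adjusted p = 0.0678) in WT-LPS against WT and -0.72 ± 0.17 (SE, adjusted p = 0.00837) averaged over genotypes. The averaged call held in all 20 settings, and the knockout difference passed without WT-LPS replicate 1 (adjusted p = 0.0299). Asah1, the acid ceramidase, ranged over 76.9 to 176 TPM, Smpd1, the acid sphingomyelinase, over 49.8 to 99.5 TPM, and Ppt1, the palmitoyl-protein thioesterase, over 76.7 to 109.9 TPM. None of these 3 was called in any comparison, although Smpd1 passed in WT-LPS against WT with the neuronal level as a covariate (-0.50, adjusted p = 0.0479). Ppt1 and Smpd1 in CPEB1-KO had the narrowest spreads within a group, with a highest library 1.01 times the lowest.

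Of the 2 proteases, Tpp1, the tripeptidyl peptidase, was lower after LPS over both genotypes (-0.54 ± 0.17, adjusted p = 0.0291). It had 42.7, 33.99 and 28.8 TPM in CPEB1-KO-LPS libraries against 54.5, 53.4 and 46.7 TPM in CPEB1-KO libraries, and 29.4, 53.3 and 52.2 TPM in WT-LPS libraries against 54.8, 50.1 and 50.3 TPM in WT libraries. By TPM, WT-LPS replicate 1 alone of its group lay below the WT libraries, whereas all 3 CPEB1-KO-LPS libraries lay below the CPEB1-KO libraries. On the TMM-scaled counts of the fit, all 3 WT-LPS libraries lay below the WT libraries. The separate changes were -0.53 ± 0.24 (SE, adjusted p = 0.234) in the knockout and -0.55 ± 0.24 (SE, adjusted p = 0.102) in the wild type. The averaged call was lost without WT replicate 2, CPEB1-KO replicate 1 or 2, or CPEB1-KO-LPS replicate 2 or 3 (adjusted p from 0.0511 to 0.0770) and in limma on TPM (adjusted p = 0.113 with a pseudocount of 1). Lgmn, the asparaginyl endopeptidase of antigen processing, had 301, 227 and 802 TPM in CPEB1-KO-LPS libraries against 593, 454 and 386 TPM in CPEB1-KO libraries, and 261, 523 and 539 TPM in WT-LPS libraries against 724, 756 and 717 TPM in WT libraries. The WT-LPS libraries were below the WT libraries, and CPEB1-KO-LPS replicate 3 was above every other library while the other 2 of its group were below all CPEB1-KO libraries. The log2 fold change averaged over genotypes was -0.53 ± 0.37 (SE, adjusted p = 0.308) with all libraries and -1.02 (adjusted p = 0.00776) without CPEB1-KO-LPS replicate 3. In WT-LPS against WT, Lgmn was not called with all libraries. It was called there in 1 of 21 alternative settings, without CPEB1-KO-LPS replicate 3 (-1.09, adjusted p = 0.0226).

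The soluble cofactors and lipid carriers were not called in any comparison. Psap had 1817, 1593 and 2085 TPM in CPEB1-KO-LPS libraries against 1962, 1997 and 1874 TPM in CPEB1-KO libraries, and 1799, 1838 and 1895 TPM in WT-LPS libraries against 2248, 1712 and 1673 TPM in WT libraries. By TPM all groups overlapped, and on the TMM-scaled counts of the fit the WT-LPS libraries lay below the WT libraries. Log2 fold changes after LPS were -0.02 ± 0.28 (SE, adjusted p = 0.974) in the knockout and -0.37 ± 0.28 (SE, adjusted p = 0.343) in the wild type. Npc2, which hands cholesterol to Npc1, ranged over 92.4 to 283 TPM, and Grn, the progranulin precursor, over 163 to 599 TPM. Npc2 was highest in CPEB1-KO-LPS replicate 3 and Grn in WT-LPS replicate 2, and Npc2 passed in the averaged LPS comparison without CPEB1-KO-LPS replicate 3 (-0.75, adjusted p = 0.0268).

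Of the 6 membrane glycoproteins, Cd63, a tetraspanin of late endosomes and lysosomes, was higher after LPS over both genotypes (1.01 ± 0.31, adjusted p = 0.0295). It had 537, 497 and 1247 TPM in CPEB1-KO-LPS libraries against 369, 339.6 and 292 TPM in CPEB1-KO libraries, and 481, 1099 and 849 TPM in WT-LPS libraries against 351, 407 and 428 TPM in WT libraries. By TPM each LPS group lay above its group without LPS. CPEB1-KO-LPS replicate 3 and WT-LPS replicates 2 and 3 were far above the other LPS libraries. On TMM-scaled counts the knockout groups stayed apart, and the wild-type ranges overlapped. The separate changes were 1.33 ± 0.44 (SE, adjusted p = 0.0938) in the knockout and 0.68 ± 0.43 (SE, adjusted p = 0.250) in the wild type. Leaving out WT replicate 1, WT-LPS replicate 2, any 1 CPEB1-KO library or CPEB1-KO-LPS replicate 3 ended the averaged call (adjusted p from 0.0530 to 0.0843), and the change was 0.63 without CPEB1-KO-LPS replicate 3. The neuronal sum was lowest in WT-LPS replicate 2 and CPEB1-KO-LPS replicate 3 among their groups; with the neuronal mean log2 level as a covariate the averaged change was 1.11 (adjusted p = 0.00221).

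Lamp1, the most abundant lysosomal membrane glycoprotein in many cells, had 389.8, 360.1 and 597 TPM in CPEB1-KO-LPS libraries against 459.9, 448 and 425 TPM in CPEB1-KO libraries, and 465, 616 and 596 TPM in WT-LPS libraries against 467, 453 and 358 TPM in WT libraries. The groups overlapped in the knockout and in the wild type, and the changes after LPS were 0.10 ± 0.30 (SE, adjusted p = 0.891) in the knockout and 0.03 ± 0.30 (SE, adjusted p = 0.955) in the wild type. Laptm5, a lysosomal membrane protein of haematopoietic cells, had 166, 107 and 464 TPM in CPEB1-KO-LPS libraries against 403, 287 and 232 TPM in CPEB1-KO libraries, and 156, 606 and 518 TPM in WT-LPS libraries against 566, 708 and 573 TPM in WT libraries. Its highest CPEB1-KO-LPS library was 4.32 times the lowest and its highest WT-LPS library 3.89 times the lowest, and the LPS changes were -0.19 ± 0.59 (SE, adjusted p = 0.893) in the knockout and -0.89 ± 0.59 (SE, adjusted p = 0.278) in the wild type. Averaged over genotypes the change was -0.54 ± 0.42 (SE, adjusted p = 0.366) with all libraries and -1.05 (adjusted p = 0.0384) without CPEB1-KO-LPS replicate 3. Cd68, the macrophage scavenger glycoprotein used as a marker of phagocytic microglia, had 80.96, 68.7 and 134 TPM in CPEB1-KO-LPS libraries against 139, 91.7 and 75.3 TPM in CPEB1-KO libraries, and 61.9, 191 and 145 TPM in WT-LPS libraries against 157, 212 and 172 TPM in WT libraries. LPS groups overlapped groups without LPS in both genotypes. Scarb2, the receptor that carries glucocerebrosidase to lysosomes, had 38.4, 64.9 and 66.4 TPM in CPEB1-KO-LPS libraries against 54.6, 59.1 and 57.3 TPM in CPEB1-KO libraries, and 60.6, 105 and 109 TPM in WT-LPS libraries against 58.7, 65.6 and 46.9 TPM in WT libraries. WT-LPS replicates 2 and 3 were the highest of all, with 0.31 ± 0.31 (SE, adjusted p = 0.476) in WT-LPS against WT. Lamp2, a structural partner of Lamp1, ranged over 91.01 to 175 TPM and was not called.

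The 4 transporters and channels were not called in any comparison. Npc1, the cholesterol transporter, had 21.8, 19.7 and 23.4 TPM in CPEB1-KO-LPS libraries against 26.4, 30.8 and 24.9 TPM in CPEB1-KO libraries, and 23.7, 36.9 and 40.04 TPM in WT-LPS libraries against 26.4, 22.1 and 22.2 TPM in WT libraries. Mcoln1, the calcium channel TRPML1, had 82.04, 73.1 and 42.2 TPM in CPEB1-KO-LPS libraries against 57.6, 59.4 and 54.2 TPM in CPEB1-KO libraries, and 47.98, 49.4 and 46.8 TPM in WT-LPS libraries against 53.2, 21.3 and 52.5 TPM in WT libraries. WT replicate 2 was the lowest library for Mcoln1, and CPEB1-KO-LPS replicates 1 and 2 the highest. Changes after LPS were -0.28 ± 0.23 (SE, adjusted p = 0.535) in the knockout and 0.16 ± 0.23 (SE, adjusted p = 0.631) in the wild type for Npc1. For Mcoln1 they were 0.22 ± 0.24 (SE, adjusted p = 0.679) in the knockout and -0.12 ± 0.25 (SE, adjusted p = 0.751) in the wild type. Ctns, the cystine transporter, ranged over 10.2 to 26.1 TPM with -0.72 ± 0.28 (SE, adjusted p = 0.0740) in WT-LPS against WT. Cln3, a membrane protein whose loss causes juvenile neuronal ceroid lipofuscinosis, ranged over 11.5 to 32.6 TPM with -0.68 ± 0.32 (SE, adjusted p = 0.130). Cln3 and Mcoln1 both hold the palindrome printed above.

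The transcription factor Tfeb fell after LPS in wild-type mice. It had 17.6, 12.5 and 14.5 TPM in CPEB1-KO-LPS libraries against 21.4, 18.6 and 17.1 TPM in CPEB1-KO libraries, and 12.1, 11.9 and 13.5 TPM in WT-LPS libraries against 21.3, 26.2 and 27.9 TPM in WT libraries. Every WT-LPS library was below every WT library, and the CPEB1-KO-LPS range overlapped the CPEB1-KO range through CPEB1-KO-LPS replicate 1. Means were 14.8 ± 2.54 TPM in CPEB1-KO-LPS, 19.03 ± 2.18 TPM in CPEB1-KO, 12.5 ± 0.864 TPM in WT-LPS and 25.1 ± 3.39 TPM in WT libraries (SD, n = 3 each). The log2 fold change was -1.38 ± 0.24 (SE, adjusted p = 0.00150) in WT-LPS against WT, -0.32 ± 0.23 (SE, adjusted p = 0.479) in CPEB1-KO-LPS against CPEB1-KO and -0.85 ± 0.22 (SE, adjusted p = 0.0118) averaged over genotypes. Tfe3, its paralog, ranged over 27.8 to 38.5 TPM with 0.32 ± 0.19 (SE, adjusted p = 0.385) in the knockout and -0.18 ± 0.19 (SE, adjusted p = 0.504) in the wild type. The promoter windows of Tfeb, Tfe3, Hexa, Man2b1, Arsb, Lipa, Tpp1, Cd63 and Fuca1 did not contain the letters CACGTG.

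Counted by libraries, the pattern was as follows. By CPM (counts scaled to TMM-adjusted library size), all 3 WT-LPS libraries were above all 3 WT libraries for 2 of the 35 genes, beside 17.5% of all genes, and below for 12 (34.3%), beside 20.1%. By TPM they were above for 4, beside 27.4%, and below for 5 (14.3%), beside 10.8%. The CPEB1-KO-LPS libraries were above the CPEB1-KO libraries for 4 by CPM, beside 18.9%, and for 5 by TPM, beside 16.2%. They were below for 5 by CPM, beside 16.5%, and for 7 (20.0%) by TPM, beside 15%.

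Markers of cell types moved with these LPS comparisons. In WT-LPS against WT, 8 of the 12 homeostatic microglial genes were lower (median log2 fold change -2.25), 4 of 6 monocyte genes were higher (median 1.75), all 4 erythroid genes tested and all 6 genes of choroid plexus and ependyma were lower (medians -2.86 and -2.03), and 2 of 12 neuronal genes were higher (median 0.54). Of the 8 endothelial and mural genes 5 were higher and 1 lower (median 1.73), and of the 9 lymphocyte genes 1 was higher and 5 lower (median -2.62). Lower too were 4 of 7 border macrophage genes (median -1.47) and 3 of 9 oligodendrocyte genes (median -0.46), while 1 of 8 astrocyte genes was higher and none of the 7 neutrophil genes tested was called by edgeR (1 at an unadjusted p below 0.05). In CPEB1-KO-LPS against CPEB1-KO, 3 of 12 homeostatic genes were lower (median -1.46), 1 of 6 monocyte genes was lower (median 0.64), 4 of 6 choroid plexus genes were lower (median -1.42), and none of the neuronal genes was called by edgeR (median -0.22; 0 also at an unadjusted p below 0.05). Of the other lists, 3 of 9 oligodendrocyte genes (median -0.74) and 1 of 8 endothelial and mural genes were lower there, 1 of 9 lymphocyte genes (median -0.89) and 1 of 8 astrocyte genes were higher, and edgeR called no border macrophage, neutrophil or erythroid gene (0, 1 and 0 at an unadjusted p below 0.05). The monocyte sum was 100.2 to 153 TPM in CPEB1-KO-LPS against 20.7 to 88.6 TPM in CPEB1-KO libraries, and 242 to 495 TPM in WT-LPS against 39.5 to 61.9 TPM in WT libraries. With the neuronal level as a covariate, Hexa (-1.93, adjusted p = 0.000796), Tfeb (-1.07, adjusted p = 0.00450) and Gla (0.85, adjusted p = 0.0161) were still called in WT-LPS against WT. The same covariate gave 4 calls in CPEB1-KO-LPS against CPEB1-KO, with Hexa, Lipa, Arsb and Man2b1 lower, beside 8.38% of all genes. The part of the other marker lists in the result was not tested.

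**Figure D4:**
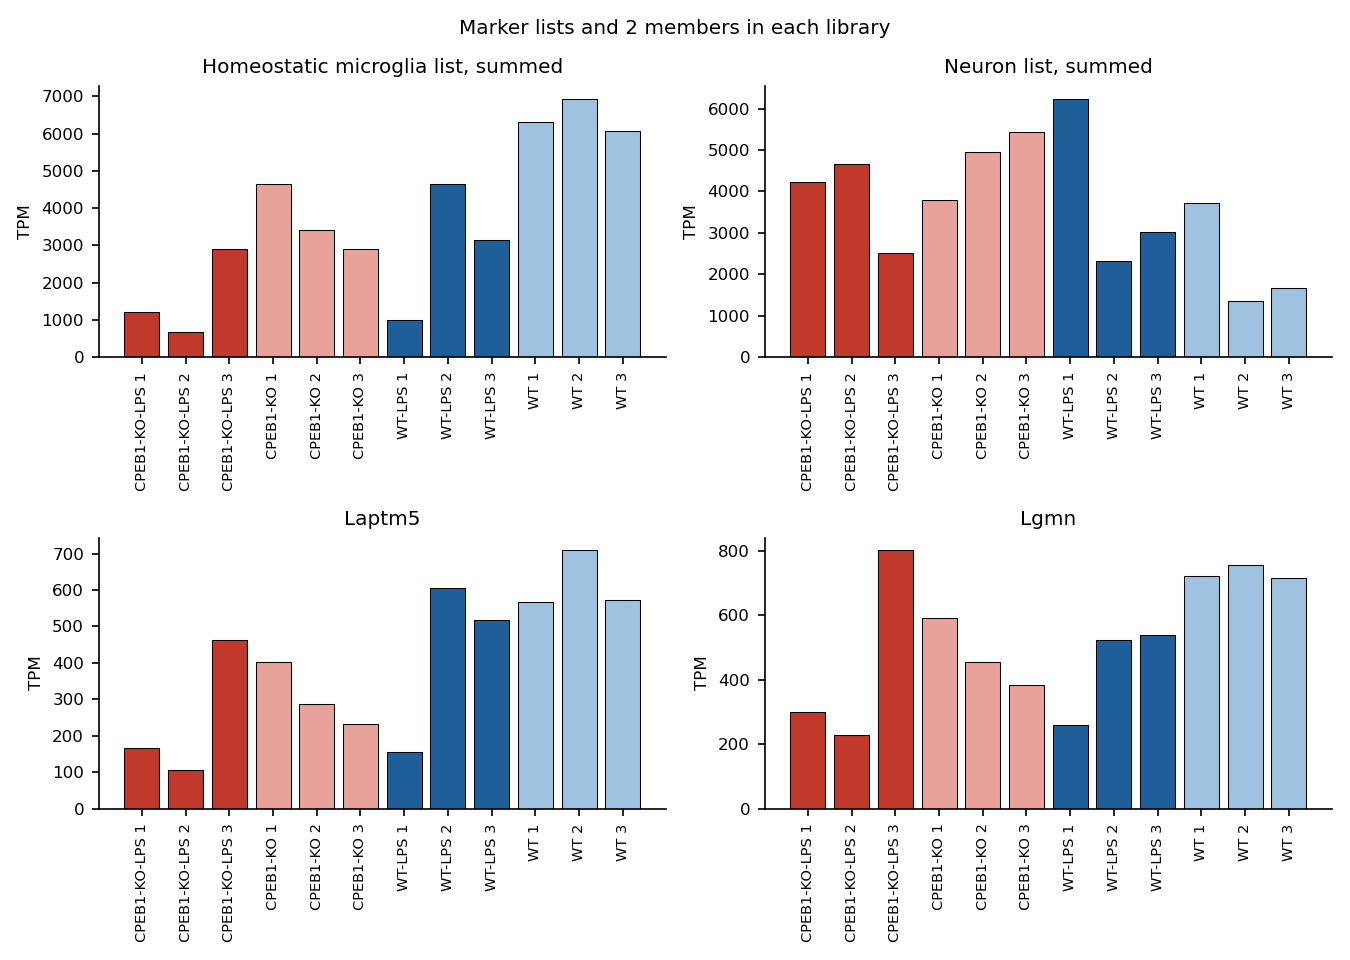
Summed TPM of the 12 homeostatic microglial genes and of the 12 neuronal genes (top), and TPM of Laptm5 and Lgmn (bottom), with a bar per library and axes from 0. WT-LPS replicate 1 and CPEB1-KO-LPS replicates 1 and 2 are low in the microglial sum, in Laptm5 and in Lgmn, and high in the neuronal sum relative to the rest of their groups.

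Without LPS the genotypes differed in no called lysosomal gene. In CPEB1-KO against WT edgeR called 0 of the 35, beside 0.0327% of all genes, with 9 (25.7%) at an unadjusted p below 0.05, beside 18.6% of all genes. DESeq2 called 0 of the 35, beside 3.37% of all genes, and limma on log2(TPM + 1) 0, beside 0.0465%. The log2 fold change was below 0 for 28 of the 35 (80.0%), against 52.5% of all genes, with a median of -0.36 over the 35 and -0.03 over all genes. On the TPM scale the medians were -0.02 over the 35 and 0.27 over all genes, and with the neuronal level as a covariate 0.06 and -0.02. By CPM, 15 of the 35 (42.9%) had all 3 CPEB1-KO libraries below all 3 WT libraries, beside 13.9% of all genes, and none had them above, beside 12.9%. By TPM, 8 were below (22.9%, beside 5.09% of all genes) and 3 above (8.57%, beside 26.7%). Below by both scales were Hexa, Glb1, Man2b1, Lgmn, Grn, Cd68, Laptm5 and Tfe3; above by TPM were Gla, Ppt1 and Mcoln1. The homeostatic microglial list had a median log2 fold change of -1.12 in this comparison, with 12 of 12 genes below 0. For the neuronal list it was 0.82, with 12 of 12 above 0. Below 0 too were 4 of 4 erythroid genes (median -1.03), 6 of 7 border macrophage genes (-0.92) and 8 of 9 lymphocyte genes (-0.35). So were 6 of 8 astrocyte genes (-0.30) and 7 of 9 oligodendrocyte genes (-0.14). Above 0 were 5 of 8 endothelial and mural genes (0.36) and 4 of 6 choroid plexus genes (0.21). The same held for 4 of 7 neutrophil genes (0.21) and 4 of 6 monocyte genes (0.15). EdgeR called none of these marker genes. The part of these marker differences in the lysosomal values was not tested beyond the covariate.

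The genes of smallest p in CPEB1-KO against WT were Glb1 (-0.73 ± 0.22, adjusted p = 0.169), Tfeb (-0.75 ± 0.23, adjusted p = 0.178) and Hexa (-1.10 ± 0.39, adjusted p = 0.193). Laptm5 had the most negative change of the 35, -1.35 ± 0.60 (SE, adjusted p = 0.252), and Cd68 followed with -1.17 ± 0.46 (SE, adjusted p = 0.221). Mean Laptm5 was 307 ± 87.4 TPM in CPEB1-KO and 616 ± 80.3 TPM in WT libraries, and mean Cd68 was 102 ± 33.3 TPM in CPEB1-KO and 180.4 ± 28.3 TPM in WT libraries (SD, n = 3 each). Without WT replicate 1, whose neuronal sum was the highest of the WT libraries, 8.31% of all genes were called and Tfeb passed (-0.93, adjusted p = 0.0296). CPEB1-KO against WT and WT-LPS against WT share the WT libraries, so their values are not independent of each other.

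After LPS the genotypes differed in no called lysosomal gene. In CPEB1-KO-LPS against WT-LPS edgeR called 0 of the 35, beside 0.00654% of all genes, with 1 (2.86%) at an unadjusted p below 0.05, beside 10.8% of all genes. DESeq2 called 0 of the 35, beside 0.504% of all genes, and limma on log2(TPM + 1) 0, beside 0.0332%. The medians were -0.10 over the 35 and 0.06 over all genes, and -0.38 and 0.07 without CPEB1-KO-LPS replicate 3. Of the marker lists in this comparison, 11 of 12 homeostatic microglial genes (median -0.44) and 6 of 6 monocyte genes (-1.31) were below 0. Below 0 too were 8 of 8 endothelial and mural genes (-1.43), 8 of 8 astrocyte genes (-0.72) and 7 of 9 oligodendrocyte genes (-0.54). Above 0 were 4 of 4 erythroid genes (1.88), 8 of 9 lymphocyte genes (0.73) and 6 of 7 border macrophage genes (0.56). So were 5 of 6 choroid plexus genes (0.55), 5 of 7 neutrophil genes (0.31) and 9 of 12 neuronal genes (0.08). EdgeR called none of these marker genes. The smallest p belonged to Npc1 (-0.56 ± 0.23, adjusted p = 0.438), Mcoln1 (0.48 ± 0.24, adjusted p = 0.486) and Scarb2 (-0.61 ± 0.31, adjusted p = 0.489). For Hexa the change was -0.01 ± 0.38 (SE, adjusted p = 0.993). By CPM, the CPEB1-KO-LPS libraries were above the WT-LPS libraries for 0 of the 35, beside 8.49% of all genes, and below for 1, beside 5.72%, and by TPM above for 0, beside 3.73%, and below for 2, beside 8.75%. Averaged over treatments, CPEB1 knockout against wild type (6 libraries each) called 0 of the 35 by edgeR, beside 0.111% of all genes (0.0196% higher and 0.0915% lower), with 5 (14.3%) at an unadjusted p below 0.05, beside 11.6% of all genes. DESeq2 called 0 of the 35, beside 0.632% of all genes, and limma on log2(TPM + 1) 0, beside 0.0929%. Glb1 (-0.43 ± 0.18, adjusted p = 0.406), Laptm5 (-1.004 ± 0.42, adjusted p = 0.409) and Cd68 (-0.78 ± 0.33, adjusted p = 0.412) had the smallest p there. The change was below 0 for 29 of the 35 genes (82.9%), against 49.1% of all genes, with medians of -0.27 over the 35 and 0.01 over all genes, or -0.02 and 0.03 with the neuronal covariate. In the same comparison 12 of 12 homeostatic microglial genes (median -0.79), 8 of 8 astrocyte genes (-0.46) and 8 of 8 endothelial and mural genes (-0.46) were below 0. Below 0 too were 6 of 6 monocyte genes (-0.60), 7 of 9 oligodendrocyte genes (-0.37) and 4 of 7 border macrophage genes (-0.19). Above 0 were 11 of 12 neuronal genes (0.50), 4 of 4 erythroid genes (0.44) and 4 of 6 choroid plexus genes (0.37). So were 6 of 7 neutrophil genes (0.10) and 6 of 9 lymphocyte genes (0.03). The part of these lists in the lysosomal values was not tested beyond the covariate.

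Whether LPS acted differently in the 2 genotypes was tested as the LPS change in the knockout minus that in the wild type. EdgeR called 0 of the 35, beside 0.00654% of all genes, with 3 (8.57%) at an unadjusted p below 0.05, beside 15.5% of all genes, so the share of lysosomal genes was under that of all genes. DESeq2 called 0 of the 35, beside 1.88% of all genes, and limma on log2(TPM + 1) 0, beside 0.0133%. The 3 of unadjusted p below 0.05 were Tfeb (1.06 ± 0.33, adjusted p = 0.205), Ids (-0.90 ± 0.35, adjusted p = 0.261) and Fuca1 (0.71 ± 0.30, adjusted p = 0.280). The difference was above 0 for 25 of the 35 and below 0 for 10 (28.6%, against 47.0% of all genes), with a median of 0.35 over the 35 and 0.05 over all genes. The medians over the 35 and over all genes were -0.08 and -0.31 by limma on log2(TPM + 1), -0.17 and 0.09 with the neuronal covariate, and -0.06 and 0.02 without CPEB1-KO-LPS replicate 3. Of the marker lists in the same test, 12 of 12 homeostatic microglial genes (median 0.70), 7 of 7 border macrophage genes (2.16), 9 of 9 lymphocyte genes (1.95) and 4 of 4 erythroid genes (2.90) were above 0. All 12 neuronal genes (-0.78), 8 of 8 astrocyte genes (-0.53) and 6 of 6 monocyte genes (-1.32) were below 0. Of the other lists, 6 of 6 choroid plexus genes (0.46) and 4 of 7 neutrophil genes (0.51) were above 0. Below 0 were 6 of 8 endothelial and mural genes (-1.53) and 6 of 9 oligodendrocyte genes (-0.20). The part of these lists was not tested beyond the neuronal covariate. The calls in the wild type that were not made in the knockout are therefore not shown to differ between genotypes.

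Other genes of the lysosomal pathway were taken from 6 lists covering cathepsins, further hydrolases and cofactors, the proton pump (V-ATPase), further membrane proteins, mannose-phosphate sorting, and MiT factors with nutrient sensing. Of 106 such genes 104 were tested, and in WT-LPS against WT 9 were higher and 17 lower (25.0%, beside the 27.4% of all genes). Among the hydrolases and cofactors, Pla2g15, a phospholipase of the lysosome, fell (-2.26 ± 0.21, adjusted p = 4.41e-05) and Acp5, an acid phosphatase, rose (2.65 ± 0.58, adjusted p = 0.00553), with Hyal2 at -1.38 ± 0.29 (SE, adjusted p = 0.00449) and Glmp at -0.67 ± 0.21 (SE, adjusted p = 0.0302). Of the cathepsins, the main lysosomal proteases, Ctsl (1.40 ± 0.33, adjusted p = 0.00763) and Ctsc (1.55 ± 0.50, adjusted p = 0.0356) rose, and Ctsd (-1.48 ± 0.47, adjusted p = 0.0326) and Ctsf (-0.66 ± 0.21, adjusted p = 0.0357) fell. The pump subunits Atp6v0b (-1.31 ± 0.24, adjusted p = 0.00241) and Atp6v0a2 (-0.73 ± 0.25, adjusted p = 0.0430) fell. They were the only 2 of the 18 pump genes tested that were called (11.1%, beside 27.4% of all genes). The change was above 0 for 11 of the 18 and below 0 for 7, with a median of 0.26.

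Of the further membrane proteins, the potassium channel gene Tmem175 (-2.25 ± 0.36, adjusted p = 0.00114) and the sodium and calcium channel gene Tpcn1 (-1.52 ± 0.25, adjusted p = 0.00123) fell in WT-LPS against WT, while the peptide transporter gene Slc15a3 rose (2.62 ± 0.64, adjusted p = 0.00938). In the sorting list, M6pr, a mannose-phosphate receptor, rose (1.19 ± 0.29, adjusted p = 0.00928), and the adaptor genes Gga1 (-1.10 ± 0.24, adjusted p = 0.00602) and Gga3 (-1.39 ± 0.34, adjusted p = 0.0103) fell, as did Gnptg, a subunit of the phosphotransferase that tags hydrolases (-0.88 ± 0.22, adjusted p = 0.00995). Mitf, a factor of the same family as Tfeb and Tfe3, fell (-1.07 ± 0.21, adjusted p = 0.00351), as did Tsc2, an inhibitor of mTORC1 signalling (-2.23 ± 0.45, adjusted p = 0.00374). The adaptor subunits Lamtor2 (-1.04 ± 0.21, adjusted p = 0.00378) and Lamtor4 (-1.16 ± 0.24, adjusted p = 0.00400), which help hold mTORC1 at the lysosome, were lower. Of the 21 genes in this list of MiT factors and nutrient sensing, 2 were called higher and 5 lower (33.3%, beside 27.4% of all genes). The change was above 0 for 12 of the 21 and below 0 for 9, with a median of 0.16.

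In CPEB1-KO-LPS against CPEB1-KO, 4 of the 104 were called (3.85%, beside the 6.22% of all genes). Slc15a3 (3.14 ± 0.65, adjusted p = 0.0118) and Acp5 (2.07 ± 0.56, adjusted p = 0.0438) rose, and Pla2g15 (-1.28 ± 0.21, adjusted p = 0.00247) and Mitf (-0.77 ± 0.21, adjusted p = 0.0471) fell, and all 4 were also called in the wild type. Averaged over genotypes, LPS raised 13 and lowered 12 of the 104 (24.0%, beside 25.7% of all genes). EdgeR called 0 of the 104 in CPEB1-KO against WT (21 at an unadjusted p below 0.05, beside 18.6% of all genes), in CPEB1-KO-LPS against WT-LPS (8, beside 10.8%) and in the interaction (16, beside 15.5%), and no other tool's count was taken for these genes.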

How the data were processed

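RNA-seq libraries of microglia from 12 mice were grouped by the labels' genotype and treatment, 3 per group. The authors deposited 1 table of expected counts per gene, not normalised between libraries, and 1 table of TPM, which they scaled within each library; per the submitters' processing notes, cutadapt, RSEM and the mm10 build were used. Expected counts, 5024830 to 13544200 per library, were rounded to whole numbers; 3.69% to 4.66% of values were not whole. In R 4.3.3 with edgeR 4.0.16, filterByExpr kept 15295 genes, library sizes were scaled by TMM, and a quasi-likelihood model with 4 group means (8 residual degrees of freedom) gave the pairwise and interaction tests. An additive model of genotype and LPS (9 residual degrees of freedom) gave the averaged tests. Tests were two-sided, with Benjamini-Hochberg adjustment over all genes at 0.05. SE is the absolute log2 fold change divided by the square root of F, and SD is over 3 libraries.

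Alternatives were DESeq2 1.42.0, limma 3.58.1 on log2(TPM + 1) and log2(TPM + 0.1) for genes with at least 1 TPM in 3 libraries, RLE size factors, no filter, a filter of 50 counts in 3 libraries, a block for replicate number, the neuronal mean as a covariate, a fit of 2 groups only, and each library left out. The scripts were tested on simulated data. Promoter windows are RefSeq's (GRCm38.p6) and gene positions GENCODE M21's; all 35 symbols matched. The 35 genes, the other lists and the tests were chosen with earlier results of these data known. All values per library are given for genes past the threshold in any comparison, the 3 of smallest p per comparison and the 5 most abundant; up to 4 genes of smallest p are named per other list. The values of Ctns, Cln3 and Tfe3 per comparison were chosen after values were seen.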

Additional observations from a re-analysis of the deposited data

How the results depend on the processing

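The calls in WT-LPS against WT depended most on the setting: 5 of the 35 genes were called, against 3 with RLE size factors, 3 with no filter, 3 with the stricter filter, 3 with a replicate block and 2 in the fit of 2 groups only, 4 with either limma fit, 6 with DESeq2 and 6 with the neuronal covariate, and between 3 and 8 when 1 library was left out. In CPEB1-KO-LPS against CPEB1-KO, where 0 were called, DESeq2 called 4, no filter 1, limma 2 on log2(TPM + 1) and 1 on log2(TPM + 0.1), the neuronal covariate 4, and the fit of 2 groups 1, and leaving out 1 library gave 0 to 2. CPEB1-KO against WT gave 0 to 1 when 1 library was left out, and LPS averaged over genotypes gave 5 to 10 around 8, and 8 or 9 in the other settings. CPEB1-KO-LPS against WT-LPS, the interaction and the averaged genotype comparison gave 0 called genes of the 35 in every setting run. No called gene changed direction under these settings. Where the fit of 2 groups or a left-out library lost calls, fewer samples entered the fit; otherwise the cause was not tested. The labels give replicates 1 to 3 in each group with 1 animal each and state no shared litter or day. Same-numbered libraries correlated in their deviations from the group means between -0.34 and 0.38 (median -0.08), over 0.1 in 5 of 18 pairs. Differently numbered libraries correlated between -0.38 and 0.38 (median 0.02), over 0.1 in 14 of 36 pairs. The best correlate in another group had the same number for 3 of 12 libraries. Because both kinds of pair span about the same range, these values do not decide whether the numbers mark a pairing. The block left 8 calls averaged over genotypes and 0 in the other 5 comparisons. Whether depth limited the calls was not tested.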
